A study of Mus musculus with 4 samples.

Results

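The genes described here encode 36 subunits of the Polycomb repressive complexes, out of 48526 gene identifiers in the count files. They were chosen by name from what is known of the complexes, with earlier results of these data known but with no threshold on their values, and all 36 symbols matched an identifier. The set comprised 4 genes of the PRC2 core, 5 PRC2 accessory subunits, 2 catalytic subunits of PRC1, 10 subunits of canonical PRC1, 8 of variant PRC1, 5 of PRC1.6 and 2 of the deubiquitinase PR-DUB.

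Ribosomal RNA-depleted RNA-seq was performed in R1 mouse embryonic stem cells (ESCs). There were 2 libraries from wild-type cells (WT) and 2 from a *Zfp296* CRISPR knockout (KO) line, clone 2 (KO2). *Zfp296* encodes a zinc finger protein that binds the nucleosome remodelling complex NuRD, and the comparison addresses which transcripts differ in the line labelled as its knockout. KO2 is 1 clone derived from a single edited cell, so the genotype and the clone cannot be told apart. Per the methods, ESCs grew on gelatine in serum with LIF, the MEK inhibitor PD0325901 and the GSK3 inhibitor CHIR99021.

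Polycomb proteins keep genes of other lineages silent by modifying histones. PRC2 methylates lysine 27 of histone H3 through EZH1 or EZH2, held together by EED and SUZ12. PRC1 ubiquitinates histone H2A through RING1 or RNF2, and a PCGF subunit decides which form it takes: canonical PRC1 carries a CBX protein that reads the PRC2 mark, variant PRC1 carries RYBP or YAF2, and PRC1.6 is brought by MGA, MAX and E2F6 to the promoters of germline genes. In ESCs this system holds developmental regulators and many germline genes at low levels.

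The gene counts summed to 2829914 and 4334499 in WT and to 7470907 and 7437294 in KO2. Both KO2 libraries were thus deeper than both WT libraries, and depth and group cannot be told apart. A gene with 3 counts stood at 0.402 to 1.06 CPM (counts scaled to the total gene count of the library), which limits what a low value can show. *Zfp296* itself had 31 counts in each WT library and 416 and 282 in KO2, or 9.44 ± 2.99 and 45.2 ± 10.6 normalised CPM (SD, n = 2), 4.97-fold higher in KO2 (adjusted p = 4.64e-05, edgeR quasi-likelihood). The guides cut in the first exon and a gene count sums all exons, so this count checks neither the label nor the loss of the protein. The paper reports that its *Zfp296* KO clones were checked by mass spectrometry and by sequencing. It proposes that a difference in ZFP296 depletion may explain some variance between KO lines. That proposal concerns ChIP-seq of SIN3A and H3K27ac and not RNA levels. The summed level of 8 ESC markers was 5015 and 5009 CPM in WT and 4850 and 4646 CPM in KO2, but 1 of them, *Sox2*, fell from 873 and 806 to 483 and 489 CPM (log2 fold change -0.79, adjusted p = 7.8e-05, edgeR). The other 7 did not pass. The summed level of 5 endoderm markers ranged from 0.94 to 3.8 CPM. Of 5 trophoblast markers only *Tfap2c* was well detected and rose from 90.9 and 89.3 to 129 and 141 CPM (adjusted p = 0.012, edgeR), while *Cdx2*, *Elf5*, *Krt7* and *Hand1* stood at 0 in WT or near it and at no more than 1.6 CPM in KO2. The sum of 2 neural markers (97.6 and 86.7 CPM in WT, 115 and 121 in KO2) was nearly all *Nes*, with *Pax6* at 1.65 CPM or less. *Sox1*, also listed as a neural marker, matched no identifier and was not read. The sum of 5 fibroblast markers (1114 and 1058 CPM in WT, 952 and 874 in KO2) was nearly all *Fn1*, with *S100a4* at 0 and *Col1a1*, *Col1a2* and *Thy1* at 1.65 CPM or less in every library. The part of these values in the results was not tested. In bulk RNA, fewer cells of a type and less RNA per cell cannot be told apart.

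In WT cells the 36 genes spanned a wide range of levels. On the scale of CPM per kilobase of exon, *Suz12* was highest at 195 and 189, followed by *Mtf2*, whose protein brings PRC2 to CpG islands, at 188 and 179. *Eed* stood at 114 and 108. Below it came *Mga* at 72.4 and 71.4, *Rybp* at 70.5 and 70.4, *Ezh2* at 66.8 and 68.5 and *Rnf2* at 65.4 and 64.2, neighbours that differed by little. *Jarid2* and *Aebp2*, which together mark the other main form of PRC2, stood at 57.6 and 55.1 and at 41.5 and 40.8. The 9 most abundant genes therefore held the whole PRC2 core apart from *Ezh1*, the main catalytic subunit of PRC1 and the scaffold of PRC1.6. At the other end lay *Bcorl1* at 0.656 and 0.333 and *Phf19* at 0.296 and 0.282. *Phf19* had 4, 6, 9 and 12 counts in WT 1, WT 2, KO2 1 and KO2 2 and was the only member too low to test.

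**Figure D1:**
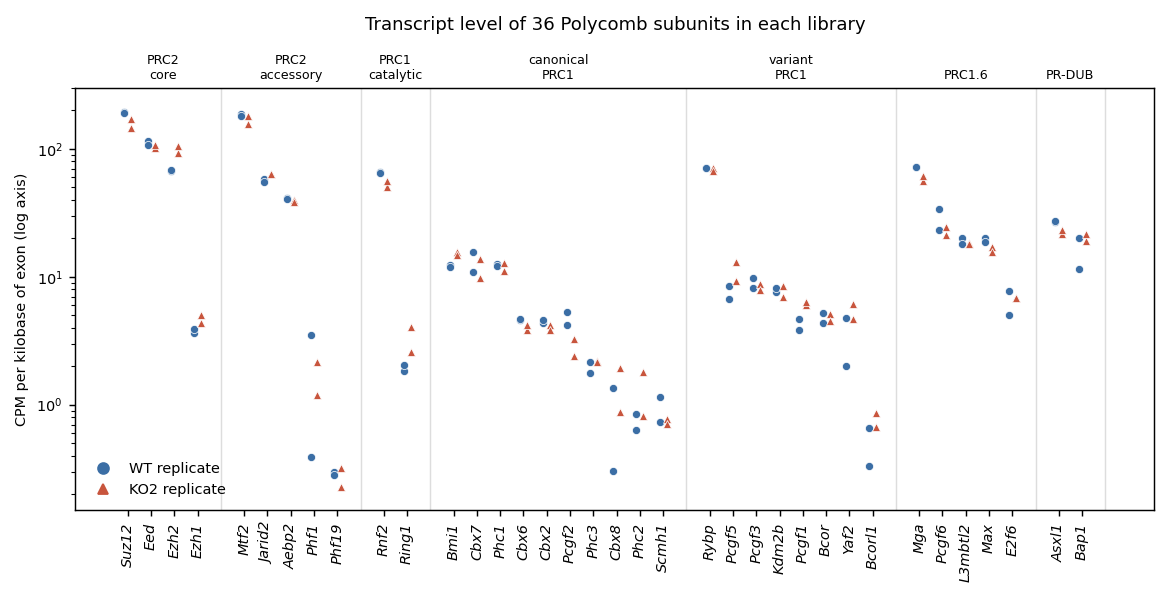
Level of the 36 Polycomb subunit genes in each library, in CPM per kilobase of exon on a log axis, grouped by complex and ordered by mean level (circles WT, triangles KO2, 2 libraries each). The PRC2 core genes *Suz12* and *Eed* and the accessory gene *Mtf2* lie above 100 in every library, while *Phf19* and *Bcorl1* lie below 1.

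Of the 35 members tested, 1 rose in KO2, none fell and 34 did not pass an adjusted p of 0.05. The gene that rose was *Ezh2*, the main H3K27 methyltransferase of dividing cells. Over all 12883 genes tested, 5.64% were called, 2.6% higher and 3.04% lower, so the share of members called (2.86%) was no larger than that of all genes. Unadjusted, 7 of 35 members had p under 0.05, against 19.4% of all tested genes. Both KO2 libraries lay beyond both WT libraries in 19 of 35 members, against 48.8% of all tested genes. The median log2 fold change (KO2 against WT) was -0.04 over the members, with 16 above and 19 below 0 and a range from -0.77 to 0.79, and 0.01 over all tested genes.

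Precision differed among the members. For 25 of 35 members the whole 95% interval of the log2 fold change lay between -1 and 1, which leaves room only for changes under 2-fold, compared with 56.3% of all tested genes. The 13 members with 2000 counts or more over the 4 libraries had standard errors of 0.10 to 0.16. The 7 with under 200 counts (*Phf1*, *Cbx8*, *Phc2*, *Scmh1*, *Pcgf1*, *Yaf2* and *Bcorl1*) had standard errors of 0.45 to 0.69, and the interval of each of them included a 2-fold difference. With duplicates, p-values measure only the spread between these libraries, which may be technical.

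**Figure D2:**
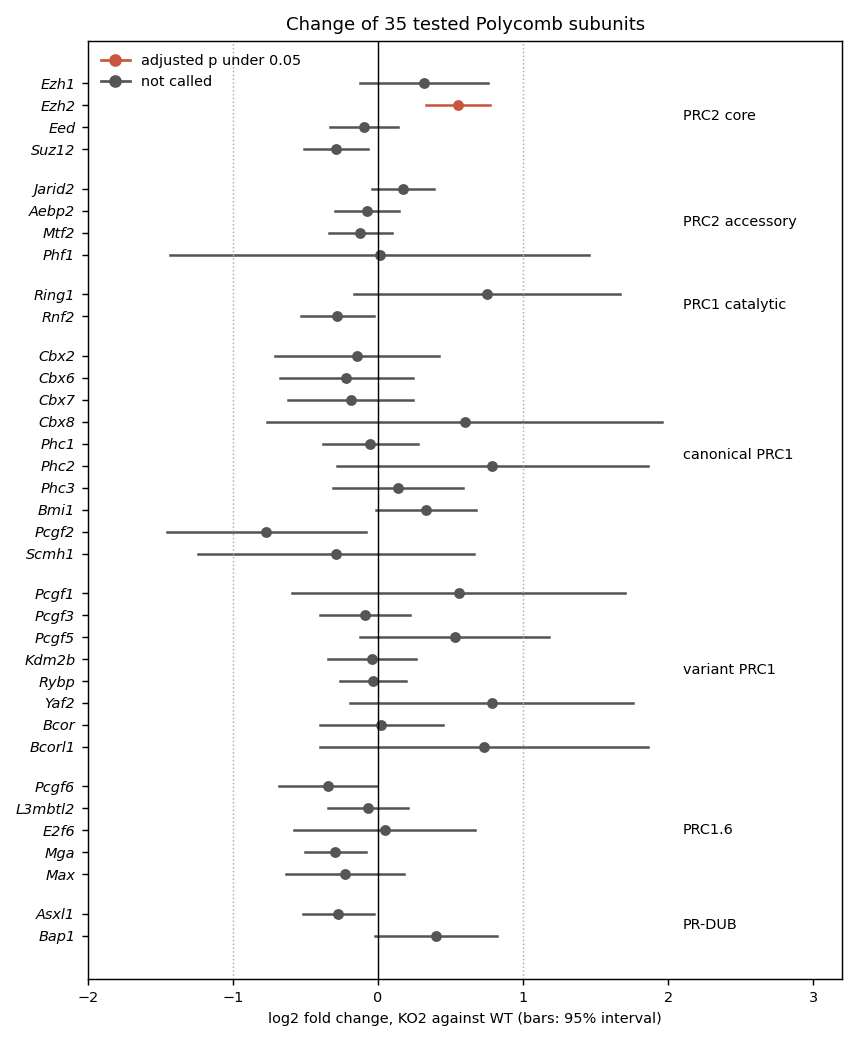
Log2 fold change of the 35 tested Polycomb subunit genes, KO2 against WT, with 95% intervals as bars, grouped by complex; dotted lines mark 2-fold changes. The interval of *Ezh2* (0.33 to 0.77) belongs to the one gene called, and the widest interval is that of *Phf1* (-1.43 to 1.45).

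*Ezh2* (chr6:47480273-47545340, minus strand, mm9) had 414 and 425 normalised CPM in WT and 579 and 650 in KO2. Both KO2 libraries lay well above both WT libraries. The mean went from 419 ± 7.48 to 615 ± 50.2 CPM (SD, n = 2), a 1.47-fold rise (log2 fold change 0.55, SE 0.11, 95% interval 0.33 to 0.77, adjusted p = 0.00354, edgeR quasi-likelihood). The call rested on WT replicate 1, the normalization and the filter. Without WT replicate 1 the log2 fold change was 0.53 with an adjusted p of 0.0698, and with scaling to the ERCC spike-in RNA it was 0.65 with an adjusted p of 0.651 (both edgeR). With genes of low count kept in the test, the adjusted p was 0.0965 (edgeR). Over all alternatives the log2 fold change ranged from 0.46 to 0.65 and the adjusted p from 3.48e-05 (DESeq2) to 0.651 (edgeR). An annotated antisense gene shares 174 exon bases with *Ezh2*, and the strand setting used in counting was not given in the sources used here. The same limit holds for *L3mbtl2* (1023 bases), *Mtf2* (395), *Kdm2b* (199), *Asxl1* (197) and *Suz12* (178). *Cbx6* (1175 bases), *Bcorl1* (67) and *Bcor* (58) share exon bases with a gene on the same strand.

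None of the other core subunits of PRC2 passed the test. *Suz12*, whose protein holds the complex together, had 963 and 935 CPM in WT and 715 and 841 in KO2 (log2 fold change -0.29, SE 0.11, adjusted p = 0.130, edgeR), and passed without KO2 replicate 2 (adjusted p = 0.0312, edgeR). *Eed*, which binds the trimethyl mark, had 253 and 239 CPM in WT and 223 and 237 in KO2 (log2 fold change -0.10). The KO2 values of both genes lay below the WT values, by less than the test could call. *Ezh1*, the paralogue of *Ezh2* with the weaker enzyme, had 26.8 and 28.8 CPM in WT and 37.2 and 32.5 in KO2 (log2 fold change 0.32, 95% interval -0.12 to 0.76, adjusted p = 0.445, edgeR). Both of its KO2 values lay above WT, and its interval included the change of *Ezh2*.

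Ratios of counts within a library do not depend on how libraries are scaled. The ratio of *Ezh2* to *Suz12* counts was 0.43 and 0.454 in WT and 0.81 and 0.773 in KO2, 1.79 times higher on average. The ratio of *Ezh2* to *Eed* was 1.64 and 1.77 in WT and 2.6 and 2.74 in KO2, 1.56 times higher. That of *Suz12* to *Eed* was 3.8 and 3.91 in WT and 3.21 and 3.54 in KO2. The transcripts of the methyltransferase and of its partners thus stood in different proportions in the 2 groups. A test of 2 against 2 libraries cannot go below an exact p of 0.333, however. *Ezh2* was the member called, and the ratios re-use its counts, so they are not independent evidence of its rise. How often other pairs of genes separate in this way was not counted.

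The accessory subunits of PRC2 divide it into a form with a Polycomb-like protein (MTF2, PHF1 or PHF19) and a form with JARID2 and AEBP2. None of the 4 tested passed. *Jarid2* had 559 and 536 CPM in WT and 616 and 618 in KO2 (log2 fold change 0.17, 95% interval -0.04 to 0.38), and *Aebp2* had 363 and 357 in WT and 346 and 336 in KO2 (log2 fold change -0.08). *Mtf2* had 989 and 942 CPM in WT and 824 and 951 in KO2, and the groups overlapped. *Phf1* could not be judged, since its 23, 4, 23 and 39 counts differed more within WT than between the groups.

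**Figure D3:**
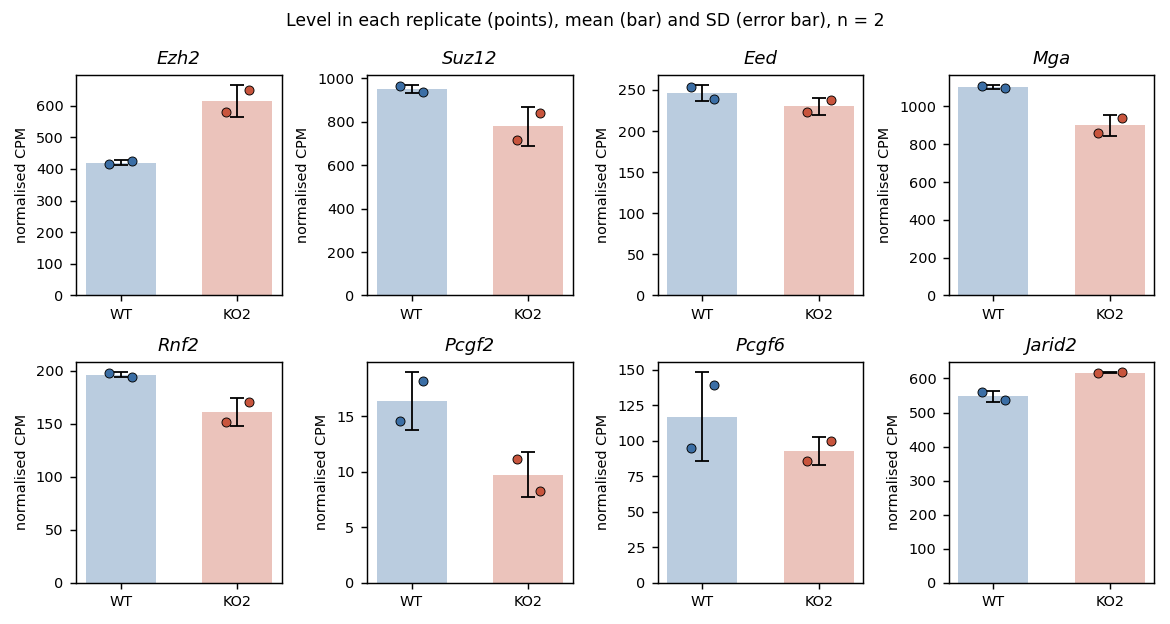
Normalised CPM of 8 Polycomb subunit genes in each library (points), with the mean as a bar and the SD as an error bar (n = 2 per group). *Ezh2* rises from 419 to 615 CPM on average, while the KO2 means of *Suz12*, *Eed*, *Mga*, *Rnf2*, *Pcgf2* and *Pcgf6* lie below the WT means and that of *Jarid2* above, none passing the test.

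Of the catalytic subunits of PRC1, *Rnf2* had 198 and 194 CPM in WT and 152 and 171 in KO2 (log2 fold change -0.28, SE 0.12, adjusted p = 0.200, edgeR). *Ring1*, the lesser paralogue in ESCs, had 5.96 and 6.62 CPM in WT and 8.37 and 13.1 in KO2 (log2 fold change 0.75, 95% interval -0.16 to 1.67). Neither passed, and their KO2 values lay on opposite sides of WT. In the length-scaled sum of the pair, *Rnf2* took 97.3% and 96.9% in WT and 95.1% and 93.3% in KO2 (exact permutation p = 0.333, the smallest that 2 against 2 can give).

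Canonical PRC1 was covered by 10 genes, and none passed. The lowest log2 fold change of all 35 members was that of *Pcgf2*, which encodes MEL18, a PCGF subunit of canonical PRC1: it had 14.5 and 18.2 CPM in WT and 11.2 and 8.29 in KO2 (log2 fold change -0.77, SE 0.33, 95% interval -1.46 to -0.08, adjusted p = 0.200, edgeR). Its close paralogue *Bmi1* had 48.8 and 47.7 CPM in WT and 62 and 59.2 in KO2 (log2 fold change 0.33, 95% interval -0.01 to 0.67). The values of these paralogues thus lay in opposite directions without either passing the test.

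Among the chromodomain genes, *Cbx7*, the main CBX gene of ESCs, had 41.4 and 59.1 CPM in WT and 52 and 37.3 in KO2, so that the groups overlapped. *Cbx2* stood at 18.6 and 19.4 CPM in WT and 18 and 16.4 in KO2, and *Cbx6* at 29.1 and 29.5 in WT and 24.2 and 26.2 in KO2. *Cbx8* had 3, 21, 56 and 24 counts, too few for a comparison. The PHC proteins polymerise and so compact chromatin. Their main gene *Phc1* stood at 66.3 and 64.5 CPM in WT and 67.6 and 58.4 in KO2, *Phc3* had a log2 fold change of 0.14, and *Phc2* (0.79) and *Scmh1* (-0.29) had standard errors of 0.51 and 0.45. Without KO2 replicate 1 the log2 fold change of *Phc2* was 0.11.

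The 8 genes of variant PRC1 included no call. *Rybp*, whose protein stimulates ubiquitination and binds the mark, was the steadiest of the abundant members, with 314 and 314 CPM in WT and 317 and 296 in KO2 (log2 fold change -0.03, 95% interval -0.26 to 0.19). *Kdm2b*, whose protein directs the PCGF1 complex to unmethylated CpG islands, had 90.2 and 96.6 CPM in WT and 99.7 and 82.3 in KO2 (log2 fold change -0.04). *Pcgf3* had a log2 fold change of -0.09 and *Bcor* of 0.02. The log2 fold changes furthest above 0 were those of *Yaf2* (0.78), *Bcorl1* (0.73), *Pcgf1* (0.56) and *Pcgf5* (0.53), all with standard errors from 0.31 to 0.55. That of *Yaf2* was 1.42 without WT replicate 1 and 0.18 without WT replicate 2.

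PRC1.6 is built on MGA, which pairs with MAX on DNA, and contains PCGF6, L3MBTL2 and E2F6. None of its 5 genes passed, and every one had its whole interval between -1 and 1. *Mga* had 1110 and 1095 CPM in WT and 859 and 939 in KO2 (log2 fold change -0.29, SE 0.10, 95% interval -0.50 to -0.09, adjusted p = 0.0956, edgeR), and among the alternatives only DESeq2 passed it, with an adjusted p of 0.0365 (the others, with edgeR, gave 0.0642 or more). *Pcgf6* had 95 and 139 CPM in WT and 86 and 100 in KO2, overlapping groups with a log2 fold change of -0.34 that was -0.58 without WT replicate 1 and -0.03 without WT replicate 2. *Max* had 39.9 and 37.6 CPM in WT and 34.4 and 31.5 in KO2 (log2 fold change -0.23). *L3mbtl2* (-0.07) and *E2f6* (0.05) had overlapping groups. Of the 5 log2 fold changes, 4 were below 0, of which that of *L3mbtl2* turned to 0.02 with ERCC scaling, and the median was -0.23 against 0.01 over all tested genes.

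The subunits of PR-DUB, which removes ubiquitin from histone H2A, did not pass either. *Asxl1* had 199 and 204 CPM in WT and 161 and 172 in KO2 (log2 fold change -0.27), and *Bap1*, its enzyme, had 67.8 and 39.2 in WT and 64.7 and 73.4 in KO2 (log2 fold change 0.40, with overlapping groups).

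The make-up of each family of paralogues was then compared within libraries, as the share of each gene in the length-scaled sum of its family. *Ezh2* took 94.9% and 94.7% of the EZH pair in WT and 94.9% and 96% in KO2. *Pcgf6* was the largest PCGF transcript in every library, with 38.2% and 47.4% in WT and 32.9% and 35.4% in KO2, a mean difference (KO2 minus WT) of -8.64 percentage points, and *Pcgf5* took 11% and 11.9% in WT and 14.5% and 19% in KO2. Of the sum of *Cbx2*, *Cbx6*, *Cbx7* and *Cbx8*, the only CBX genes compared, *Cbx7* took 54% and 59.5% in WT and 57.8% and 52.5% in KO2. *Cbx6* shares 1175 exon bases with a gene on the same strand, and the effect on these shares was not tested. *Mtf2* took at least 98% of the Polycomb-like transcripts in all 4 libraries. Among the genes compared, no leading paralogue of the EZH, RING, PCL, CBX, PHC, PCGF, RYBP or BCOR family lost its place in any library. No share could reach 0.05 with 2 libraries a group.

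**Figure D4:**
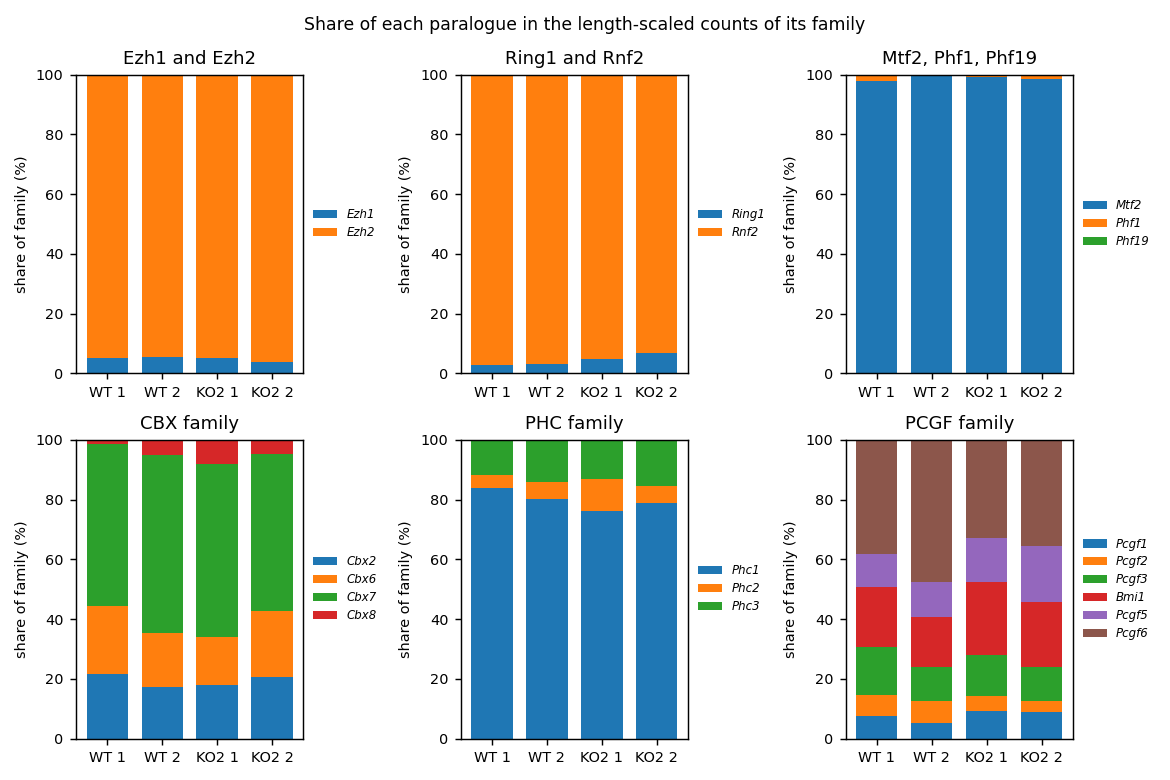
Share (%) of each paralogue in the length-scaled counts of its family in each of the 4 libraries, for 6 families. Among the genes compared, the leading gene is the same in every library, such as *Pcgf6* with 32.9% to 47.4% of the PCGF family. *Cbx7* holds 52.5% to 59.5% of the sum of *Cbx2*, *Cbx6*, *Cbx7* and *Cbx8*.

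Further genes of the Polycomb system were taken from a list of associated subunits that are not members, of which 35 are reported. Of the 33 tested among these, 2 fell and 31 did not pass (6.06% called, close to the 5.64% of all tested genes), with a median log2 fold change of -0.11. The subunits that fell were *Hdac2*, a histone deacetylase shared by PRC1.6, NuRD and SIN3A, and *Wdr5*, shared by PRC1.6 and the H3K4 methyltransferases. *Hdac2* had 469 and 433 CPM in WT and 302 and 321 in KO2 (log2 fold change -0.53, SE 0.11, adjusted p = 0.00513, edgeR), and lost the call without WT replicate 1, with ERCC scaling and with no filter on low counts. *Wdr5* had 407 and 422 CPM in WT and 317 and 312 in KO2 (log2 fold change -0.40, SE 0.11, adjusted p = 0.0318, edgeR), and it lost the call when any single library was left out and under those same settings.

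Of 19 genes for H3K27 demethylases and H3K4 methyltransferase subunits, which act against Polycomb, 18 were tested, and 1 rose (5.56% called, against 5.64% of all tested genes). This was *Uty*, the Y-linked paralogue of the demethylase gene *Kdm6a*, with no counts in either WT library and 723 and 799 in KO2, at least 109-fold higher in KO2 against a floor of 3 counts per library. *Kdm6a* had 129 and 125 CPM in WT and 108 and 142 in KO2 (log2 fold change -0.02). A Y-linked transcript was therefore found in one group of libraries and not in the other, and its part in the other results was not tested. The share called in this list leaves out *Wdr5*, which fell and was counted only among the associated subunits.

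Lists of genes of classes known to be held down by Polycomb in ESCs were read from the same fit. Of 29 germline genes of the class repressed by PRC1.6, 25 were tested, of which 10 fell and none rose (40% called, against 5.64% of all tested genes), with a median log2 fold change of -0.76 against 0.01 over all tested genes. The direction was known when the list was drawn up, so the count is not independent evidence of it. Not every listed gene was at a low level in WT. Per kilobase of exon, *Dazl* stood at 198 and 213 CPM and *Fkbp6* at 54.9 and 55.5. *Suz12*, the highest member, stood at 195 and 189. *Tdrd1* stood at only 0.0685 and 0.304. *Dazl*, a germ cell RNA-binding protein gene, had 597 and 643 CPM in WT and 130 and 143 in KO2 (log2 fold change -2.19, adjusted p = 3.2e-10, edgeR). *Fkbp6* went from 95 and 95.9 to 22.2 and 27.8 CPM and *Stk31* from 124 and 128 to 47.4 and 50.9 CPM (adjusted p = 7.08e-07 and 6.55e-06, edgeR). The meiotic chromosome genes *Sycp3* (41 and 32.4 to 9.26 and 11.1 CPM) and *Stag3* (206 and 212 to 120 and 127 CPM) and the meiosis inducer *Stra8* (20.1 and 29.3 to 2.79 and 6.55 CPM) fell as well. Without KO2 replicate 2 the log2 fold change of *Stra8* was -3.18 against -2.44 with all libraries. Of the 25 log2 fold changes, 6 were above 0 and 19 below. In 21 of the 25 the groups did not overlap, in either direction, against 48.8% of all tested genes. *Brdt* (2.72), *Majin* (2.47), *Dmc1* (2.36) and *Asz1* (1.15) lay above WT in both KO2 libraries, on WT counts of 0 to 15. They did not pass the adjusted threshold, and these 4 were picked after their values were seen. The filter keeps a gene with enough counts in 1 group alone. *Brdt*, *Majin* and *Dmc1* had 0 to 4 counts in WT and entered the test only through KO2. Their place above WT was thus partly set by the filter. *Taf7l* and *Slc25a31*, both lower in KO2, entered only through WT.

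Of 31 developmental regulators of the class marked by PRC2, only 11 had enough counts to test, and 1 rose (9.09% called, against 5.64% of all tested genes). *Gata2*, a transcription factor of blood and trophoblast, had 5.59 and 7.33 CPM in WT and 18.8 and 20.5 in KO2 (log2 fold change 1.56, SE 0.37, adjusted p = 0.0107, edgeR), a call lost without WT replicate 1 and with no filter on low counts. The median of the 11 was -0.25.

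**Figure D5:**
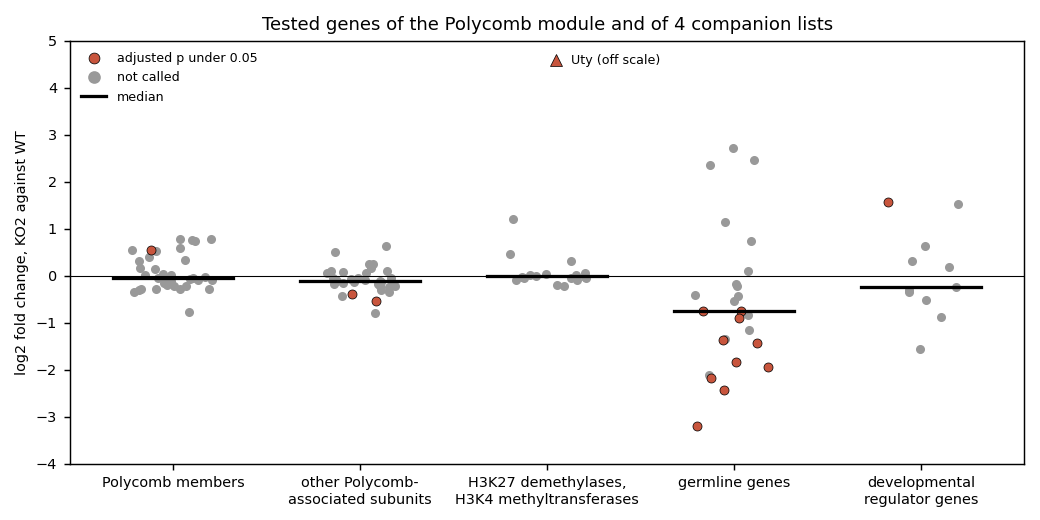
Log2 fold change (KO2 against WT) of each tested gene among the 35 Polycomb members and in 4 companion lists, with called genes in red, the median as a black line and *Uty* drawn off scale. The medians are -0.04 for the members, -0.11, -0.02, -0.76 and -0.25 for the lists in the order drawn.

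Promoters were searched for CACGTG, the E-box bound by MAX and MGA, and for TCCCGC, the core of the E2F site, on both strands. The window ran from 250 bases before to 50 after the start of the transcript, in RefSeq GRCm38.p6. The E-box stood in 9 of 32 members with a window (28.12%), against 8.09% of 27025 genes. TCCCGC stood in 15 of 32 (46.88%) against 22.05%. A gene counted if any of its windows matched. The 32 members had 45 windows, and the 27025 genes had 32851. By window, the E-box stood in 20% against 7.15% and TCCCGC in 37.78% against 19.98%. Of the germline genes listed, 14 of 26 held an E-box and 12 of 26 held TCCCGC. Among those lower in KO2, 7 of 10 held an E-box and 3 of 10 held TCCCGC. Among those tested and not called, 6 of 12 held an E-box and 8 of 12 held TCCCGC. Base composition, which differs between promoters, was not matched, and a match is not a bound site. The bases before the start are shown for *Ezh2*, the member called, for *Pcgf2*, the member with the lowest log2 fold change, and for *Sycp3* and *Dazl*, germline genes that fell, with motif matches in capitals (GCGGGA is TCCCGC read on the other strand). *Ezh2* and *Dazl* held neither motif in the window, *Pcgf2* an E-box and 2 TCCCGC matches, of which the one after the start is not shown, and *Sycp3* a pair of E-boxes and one GCGGGA. The positions are chr6:47595031-47595280 (minus strand), chr11:97699649-97699898 (minus strand), chr10:88459337-88459586 (plus strand) and chr17:50293621-50293870 (minus strand).
Ezh2: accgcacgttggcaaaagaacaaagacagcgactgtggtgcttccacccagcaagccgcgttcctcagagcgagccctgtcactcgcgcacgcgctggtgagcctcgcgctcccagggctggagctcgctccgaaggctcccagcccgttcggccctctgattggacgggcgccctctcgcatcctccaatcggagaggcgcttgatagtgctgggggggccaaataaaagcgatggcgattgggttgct
Pcgf2: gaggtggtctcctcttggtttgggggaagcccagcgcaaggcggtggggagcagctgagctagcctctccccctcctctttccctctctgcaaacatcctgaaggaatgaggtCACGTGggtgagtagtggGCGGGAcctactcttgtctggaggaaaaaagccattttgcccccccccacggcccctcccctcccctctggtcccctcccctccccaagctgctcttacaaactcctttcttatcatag
Sycp3: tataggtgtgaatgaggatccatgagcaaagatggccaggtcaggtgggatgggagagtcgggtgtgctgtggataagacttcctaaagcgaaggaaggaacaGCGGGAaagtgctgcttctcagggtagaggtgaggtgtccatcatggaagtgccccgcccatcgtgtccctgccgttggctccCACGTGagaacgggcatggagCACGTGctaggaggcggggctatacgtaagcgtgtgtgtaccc
Dazl: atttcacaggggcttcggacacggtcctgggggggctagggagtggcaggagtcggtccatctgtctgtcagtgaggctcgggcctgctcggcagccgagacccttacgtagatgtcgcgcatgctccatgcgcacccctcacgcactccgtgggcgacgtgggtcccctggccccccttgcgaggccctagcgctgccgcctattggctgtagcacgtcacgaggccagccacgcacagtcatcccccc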

How the data were processed

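RNA was isolated in duplicate from WT and KO2 ESCs, depleted of ribosomal RNA and made into strand-specific libraries. The deposited files hold raw read counts per gene, which the authors made by aligning reads to mm9 with HISAT2 and counting with HTSeq (tools and build per the submitters' processing notes; versions and the strand setting of counting are not given in the sources used here). The HTSeq summary rows (52.9 to 58.8% of all rows' counts) and the 92 ERCC rows were left out of library sizes.

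Counts were fitted with edgeR 4.0.16 (quasi-likelihood, TMM factors, filterByExpr with a minimum count of 10 and total of 15) in R 4.3.3, with group as the only term, and adjusted by Benjamini-Hochberg over all 12883 tested genes with a threshold of 0.05. DESeq2 1.42.0 was an alternative. The 95% intervals are the log2 fold change plus or minus a t quantile times its standard error. They were not derived from the F test and need not match its p-values. Over all tested genes, 2499 had an unadjusted p under 0.05 and 2324 had an interval that excluded 0. Normalised CPM uses TMM-scaled library sizes, and levels between genes were divided by exon length from the mm9 annotation (GENCODE). Scripts were tested on simulated data.

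The members and lists were chosen with earlier results of these data known. Named were *Zfp296*, called members, the 4 next by adjusted p, the remaining members by complex, and from each list up to 6 called genes. A gene of the associated-subunit list is not reported here, and the counts for that list leave it out. No pairing of the libraries by replicate number was seen, and a shared preparation was not tested.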

Additional observations from a re-analysis of the deposited data

How the results depend on the processing

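The number of genes called moved from 726 to 163 with ERCC scaling, 61 with no filter on low counts and 454 with DESeq2, and ranged from 270 to 691 with 1 library left out. Members called went from 1 to 0 with ERCC scaling and with no filter, to 2 with DESeq2 (*Ezh2* and *Mga*), and ranged from 0 (without WT replicate 1) to 2 (without KO2 replicate 2, *Ezh2* and *Suz12*). Associated subunits called went from 2 to 0 with ERCC scaling and with no filter, and ranged from 1 (without WT replicate 1, WT replicate 2 or KO2 replicate 1) to 2 with 1 library left out. Germline genes called went from 10 to 6 with ERCC scaling and 3 with no filter, and ranged from 7 to 11. The developmental call was lost (0) with no filter and without WT replicate 1. The demethylase and methyltransferase list had 1 to 2 calls with 1 library left out. With replicate as a blocking term, 946 genes passed, of which 1 was a member, 3 associated subunits, 2 demethylase or methyltransferase genes, 12 germline genes and 1 developmental gene. Deviations of equal numbers correlated at -0.00658, so no pairing by number was seen, but a shared preparation was not tested.

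No member that changed sign was called. With ERCC scaling the log2 fold changes of *Eed* (0.0058), *Aebp2* (0.017), *Phc1* (0.023), *Kdm2b* (0.028), *Rybp* (0.053) and *L3mbtl2* (0.022) turned positive, and that of *Phf1* was -0.18 with DESeq2 and -0.12 with the older quasi-likelihood method. With 1 library left out, the log2 fold change ranged from -1.08 to 2.08 for *Phf1*, -0.46 to 0.11 for *Cbx7*, -0.10 to 2.19 for *Cbx8*, -0.16 to 0.045 for *Phc1*, -0.64 to 0.013 for *Scmh1*, -0.22 to 0.032 for *Pcgf3*, -0.18 to 0.085 for *Kdm2b*, -0.079 to 0.0082 for *Rybp*, -0.11 to 0.15 for *Bcor*, -0.15 to 0.0016 for *L3mbtl2* and -0.19 to 0.44 for *E2f6*. The cause of these shifts was not tested. Of the other values, 355 for members kept their sign and their side of the threshold. All 45 for paralogue shares moved by less than 1 SD pooled over the groups. With duplicates, leaving out 1 library cannot move a mean share by more than that SD. Only the alternative without division by gene length could have moved further. ERCC scaling rests on 2515 to 7024 spike-in counts a library. A library left out leaves 1 in its group, whose spread is then taken to be that of the other group.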
